A study of Mus musculus with 12 samples.

Results

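The transcripts described here mostly code for RNA helicases, heterogeneous nuclear ribonucleoproteins (hnRNPs) and other RNA-binding proteins, among them splicing factors. They were chosen by gene symbol, not by function, and measured in the brains of mice with reduced Staufen2 (Stau2), a double-stranded RNA-binding protein. The members were all array clusters with a single gene symbol that began with Ddx, Dhx, Hnrnp, Elavl, Celf or Srsf, or with Rbm and a digit, apart from Ddx6 and Rbm3. A gene was kept where its cluster exceeded a log2 value of 5 in at least 3 of the 12 arrays, and the cluster with the highest mean stood for it. Of 122 such genes on the array, 113 passed, among 27966 clusters tested in all. The 113 were 31 of 33 Ddx genes, 16 of 16 Dhx genes, 18 of 19 Hnrnp genes, 10 of 10 Srsf genes, 4 of 4 Elavl genes, 6 of 6 Celf genes and 28 of 34 Rbm genes. The 9 that did not pass were Ddx43, Ddx60, Hnrnpa1l2-ps2, Rbm31y, Rbm3os, Rbm44, Rbm46os, Rbm47 and Rbm8a2, none of which exceeded the value on any array. A further 10 genes, among them Hnrnpa1, Hnrnph3 and Rbm4, were on clusters shared by several symbols and were not counted.

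Total RNA of brain lysates of 12 adult male mice was hybridised, 1 mouse per array, with 3 mice in each of 4 groups. Trained Stau2GT and trained WT mice were given behavioral tests (open field, object recognition and location, Barnes maze) over 4 weeks, while naive Stau2GT and naive WT mice had not. Stau2GT mice carried the gene trap allele B6.129P2-Stau2Gt(RRG396)Byg, with a lacZ reporter, in all cells, and WT mice were C57Bl/6J. The labels gave 16 to 20 weeks as the age of all mice and did not say that Stau2GT and WT mice were littermates. The array names in the labels held 1 stem for all naive arrays and another for all trained arrays, so a difference between trained and naive mice and a difference between these 2 array sets cannot be told apart. Genotypes were compared within a set. In lysates of a whole organ, fewer cells of a type and less RNA per cell cannot be told apart either.

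The trapped gene itself was lower in every Stau2GT mouse. Stau2 had values of 8.02, 7.95 and 8.07 in trained Stau2GT brains, against 8.27, 8.16 and 8.30 in trained WT brains. It had 8.08, 8.06 and 8.07 in naive Stau2GT brains, against 8.22, 8.32 and 8.21 in naive WT brains. The mean difference over both states was −0.205, or −13.2%, with p = 0.005 in an exact two-sided permutation test within states, the smallest p that test can give, and an adjusted p of 0.292 in limma. Whether the probes of this cluster lie before or after the trap insertion was not known here, so the value is no measure of the knock-down. Neuron markers averaged 10.92 to 11.05 on the arrays of all groups. Array medians were 5.68 to 5.79. The correlation between arrays of 1 group was lowest in trained Stau2GT mice, at 0.978 to 0.980.

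DEAD-box (Ddx) and DEAH-box (Dhx) proteins use ATP to remodel RNA and RNA-protein complexes in splicing, ribosome assembly, export, translation and decay. hnRNPs coat nascent transcripts and, with the serine- and arginine-rich factors (Srsf), set which splice sites are used. Elavl and Celf proteins bind U- and GU-rich elements in neurons, where they steer splicing, stability and translation, and Rbm is a collective name for proteins with an RNA recognition motif. Helicases and hnRNPs also take part in the RNA granules in which Stau2 and other proteins carry mRNAs into dendrites.

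All values are log2 intensities after robust multi-array averaging (RMA), given to 2 decimals. They depend on the probes of each cluster, so that they compare mice for 1 gene and are not amounts that rank genes. Among the helicases, the family median of the mean over 12 arrays was 7.32 for Ddx, with Ddx5, a splicing and transcription cofactor, at 11.7 and the germline helicase Ddx4 at 4.91. The Dhx median was 7.55, with Dhx9 at 9.62 and Dhx58, a cytoplasmic sensor of viral RNA, at 5.30. Hnrnp clusters had a median of 9.30, between Hnrnpu, a scaffold-attachment protein, at 10.7 and Hnrnpf at 7.56. Srsf clusters had a median of 8.37, between Srsf2 at 10.1 and Srsf10 at 7.16. The neuronal Elavl3 was at 10.4 and Elavl4 at 7.29, around an Elavl median of 8.84. Celf2 was at 10.1 and Celf6 at 6.65, around a Celf median of 9.19. Rbm clusters had a median of 6.93, with the splicing factor Rbm39 at 10.05 and Rbm46, known from germ cells, at 4.65.

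Most members varied little between mice of a group. The median within-group SD was 0.0859 for the 113 members, against 0.130 for all clusters tested and 0.110 for the tested clusters with a single gene symbol. Part of this gap went with brightness, since the members' median value was 7.91, against 6.62 for all clusters. Under a log2 value of 6 the medians were 0.149 for 8 members and 0.145 for single-symbol clusters. Between log2 values of 6 and 8 the medians were 0.0912 for 51 members and 0.110 for single-symbol clusters. Between 8 and 10 they were 0.0741 for 47 members and 0.0815 for single-symbol clusters, while above 10 the 7 members had a median of 0.0800, against 0.0604. By family, the median within-group SD was lowest for Elavl (0.0552) and Hnrnp (0.0690) and highest for Celf (0.115) and Rbm (0.114). Across all 12 arrays the most variable members were Rbm46 (SD 0.40), Rbm15b (0.36) and Rbm12b1 (0.25). Rbm12b1 ranged over 6.14 to 6.51 in trained Stau2GT brains, 5.99 to 6.47 in trained WT brains, 6.53 to 6.80 in naive Stau2GT brains and 6.09 to 6.68 in naive WT brains, so its spread lay mostly within groups. Ddx3x, a helicase of translation initiation and singled out after its values were seen, had a within-group SD of 0.213, with 1 trained Stau2GT array at 8.89 and the other two at 9.57 and 9.46.

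**Figure D1:**
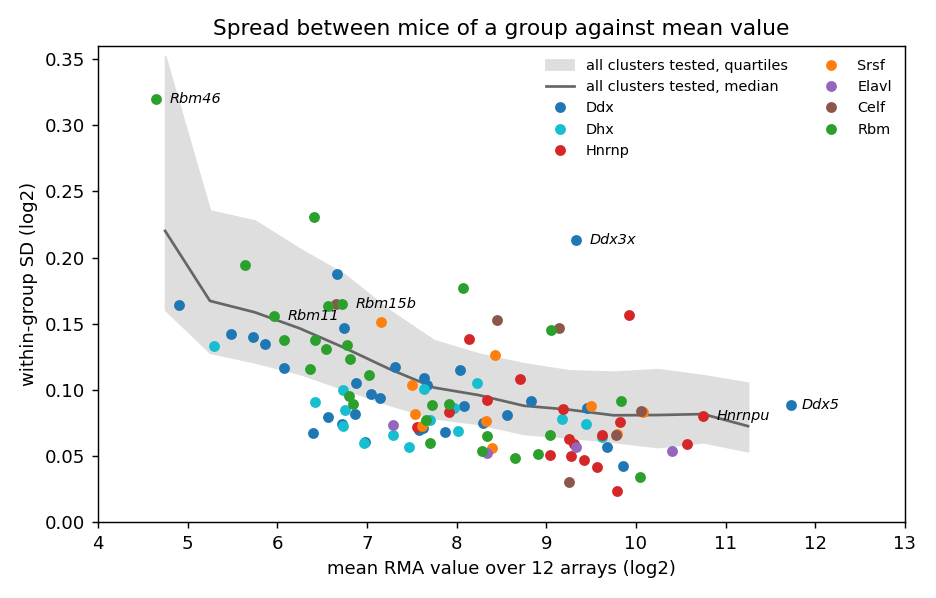
Within-group SD (log2) against mean RMA value over 12 arrays (log2) for the 113 members, colored by family, with the median (line) and quartiles (band) of all clusters tested in steps of 0.5. Most members lie under the line between 6 and 10, while Rbm46 (0.320) and Ddx3x (0.213) lie high; clusters with a mean under 5 passed through their brightest arrays alone.

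Training was first compared in Stau2GT mice, where it asks which members differed between trained and naive brains with reduced Stau2. Of the 113 members, 5 were lower in trained Stau2GT than in naive Stau2GT brains at an adjusted p under 0.05 (limma, Benjamini-Hochberg over all 27966 clusters), and none was higher. They were the m6A adapter gene Rbm15b, the helicases Ddx18 and Dhx40, and the splicing factors Hnrnpc and Rbm39. That is 4.42% of members, against 2.98% of all clusters called lower and 6.11% called in either direction. At an unadjusted p under 0.05 there were 29 members, or 25.7%, against 26.2% of all clusters, 24 of them lower and 5 higher. The groups did not overlap for 34 members, or 30.1%, against 28.1% of all clusters. Counted in either direction, these shares were near the background, as many other clusters differed between these 2 groups of arrays. By direction they were not. At an unadjusted p under 0.05, all 27966 clusters split into 3374 lower and 3956 higher, unlike the members' 24 and 5. The tested clusters with a single gene symbol split into 2166 lower and 2099 higher. Members with groups apart were 28 lower and 6 higher in trained brains, against 3603 and 4251 of all clusters. Of the single-symbol clusters, 2378 were apart and lower and 2358 apart and higher. The cause of this lean was not tested.

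The sequences before the transcription start of the 5 genes are shown because these genes moved in the same direction. Each is the 250 bases before the RefSeq start in GRCm38.p6, 5′ to 3′ on the minus strand: Rbm15b at chr9:106887076-106887325, Ddx18 at chr1:121567981-121568230, Dhx40 at chr11:86807661-86807910, Hnrnpc at chr14:52104022-52104271 and Rbm39 at chr2:156180239-156180488, the outermost of its 2 starts. Capitals mark the GC box GGGCGG, the CCAAT box, the ETS motif CCGGAAG, the E-box CACGTG, the cAMP response element TGACGTCA, the TATA box TATAAA and the element TCTCGCGA, searched on both strands.
Rbm15b: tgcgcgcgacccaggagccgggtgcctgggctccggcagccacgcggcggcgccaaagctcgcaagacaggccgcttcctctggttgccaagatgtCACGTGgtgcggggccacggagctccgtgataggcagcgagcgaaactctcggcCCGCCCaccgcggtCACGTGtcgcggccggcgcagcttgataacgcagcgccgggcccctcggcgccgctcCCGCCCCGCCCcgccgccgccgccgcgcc
Ddx18: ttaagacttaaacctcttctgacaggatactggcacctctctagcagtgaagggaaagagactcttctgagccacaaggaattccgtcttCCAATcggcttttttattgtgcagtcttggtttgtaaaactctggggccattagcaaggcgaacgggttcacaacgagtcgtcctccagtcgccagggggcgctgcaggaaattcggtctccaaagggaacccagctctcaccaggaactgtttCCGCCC
Dhx40: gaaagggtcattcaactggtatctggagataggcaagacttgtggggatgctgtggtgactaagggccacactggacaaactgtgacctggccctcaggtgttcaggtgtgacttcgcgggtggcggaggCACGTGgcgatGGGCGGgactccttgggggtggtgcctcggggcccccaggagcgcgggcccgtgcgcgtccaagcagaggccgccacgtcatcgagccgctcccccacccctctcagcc
Hnrnpc: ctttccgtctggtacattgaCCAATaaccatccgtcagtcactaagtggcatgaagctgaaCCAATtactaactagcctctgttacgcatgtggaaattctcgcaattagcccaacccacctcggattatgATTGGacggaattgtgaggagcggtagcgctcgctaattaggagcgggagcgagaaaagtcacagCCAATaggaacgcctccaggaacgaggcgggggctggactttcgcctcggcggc
Rbm39: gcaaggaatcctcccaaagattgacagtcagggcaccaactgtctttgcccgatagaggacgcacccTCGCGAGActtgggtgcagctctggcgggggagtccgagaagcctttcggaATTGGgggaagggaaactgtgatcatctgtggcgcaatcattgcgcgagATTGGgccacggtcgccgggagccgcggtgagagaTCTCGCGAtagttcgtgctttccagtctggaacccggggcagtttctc

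No motif was held by all 5 sequences. Rbm15b had 3 GC boxes and 2 E-boxes, Dhx40 had 1 of each, and Ddx18 had 1 GC box and 1 CCAAT box. Hnrnpc had 4 CCAAT boxes, and Rbm39 had 2 CCAAT boxes and 2 copies of TCTCGCGA or its reverse complement. GC content was 76.0% for Rbm15b, 51.6% for Ddx18, 65.6% for Dhx40, 52.8% for Hnrnpc and 59.2% for Rbm39. RefSeq windows were matched for 99 of the 113 members, with a median GC content of 60.8%, against 52.0% for the 27025 genes with a window. The GC box was present in 57.6% of the 99 windows, against 33.0% of all windows, and CCAAT in 45.5% against 34.5%. CCGGAAG was in 21.2% against 7.07%, CACGTG in 9.09% against 6.04%, TGACGTCA in 3.03% against 1.60%, TATAAA in 10.1% against 13% and TCTCGCGA in 3.03% against 0.932%. These letters are matches only, and the all-gene table holds many genes that these arrays did not measure above the filter.

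Rbm15b codes for a protein that guides the N6-methyladenosine (m6A) writer complex to its RNAs. Rbm15b had 6.53, 6.06 and 6.25 in trained Stau2GT brains, against 7.29, 7.03 and 7.16 in naive Stau2GT brains. All 3 trained values lay under all 3 naive values, and Rbm15b fell by 0.88 on the log2 scale (SE 0.13, 95% interval −1.16 to −0.60, adjusted p = 0.00777, limma) (−45.7%). Trained WT brains had 6.60, 6.47 and 6.80, against 6.79, 6.76 and 6.93 in naive WT brains, which overlapped, and the difference of −0.20 had an adjusted p of 0.472. Rbm15b was the member with the widest gap between the effects of training in both genotypes, at −0.68 (SE 0.18, unadjusted p = 0.00304), but with an adjusted p of 0.462 that gap did not pass.

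Ddx18 codes for a nucleolar helicase of ribosome assembly. Its values were 7.25, 7.41 and 7.45 in trained Stau2GT brains, against 7.71, 7.66 and 7.71 in naive Stau2GT brains, so the groups were apart. Ddx18 fell by 0.32 (SE 0.07, adjusted p = 0.0275, limma) (−20.1%). Trained WT brains had 7.59, 7.56 and 7.71, against 7.67, 7.60 and 7.63 in naive WT brains, with a difference of −0.01. The interaction of −0.31 (SE 0.10) had an adjusted p of 0.543. Ddx18 lies on the chromosome of Stau2, 574 protein-coding genes away in the RefSeq order of 1204, as do the members Ddx59, Dhx9 and Hnrnpu, 699, 756 and 1019 genes away.

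Dhx40, a DEAH-box helicase, had 7.61, 7.40 and 7.61 in trained Stau2GT brains, against 7.78, 7.90 and 7.85 in naive Stau2GT brains. It fell by 0.30 (SE 0.07, adjusted p = 0.0384, limma). Dhx40 also lay lower in all trained WT mice, at 7.65, 7.67 and 7.54, than in naive WT mice, at 7.77, 7.82 and 7.78, but that difference of −0.17 did not pass (adjusted p = 0.288).

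Hnrnpc, which binds U-rich stretches of nascent transcripts, had 9.41, 9.39 and 9.49 in trained Stau2GT brains, against 9.65, 9.71 and 9.73 in naive Stau2GT brains. Hnrnpc fell by 0.27 (SE 0.06, adjusted p = 0.0274, limma) (−16.9%). In WT mice the groups were apart as well, at 9.49, 9.49 and 9.54 in trained brains, against 9.64, 9.59 and 9.67 in naive brains. The WT difference was −0.13, with an adjusted p of 0.311.

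Rbm39, a partner of the splice site factor U2AF, had 9.96, 9.91 and 9.93 in trained Stau2GT brains, against 10.17, 10.14 and 10.18 in naive Stau2GT brains. Its fall of 0.23 (SE 0.05, adjusted p = 0.0365, limma) amounted to −14.7%. Trained WT brains had 9.98, 9.98 and 10, against 10.18, 10.09 and 10.07 in naive WT brains, with a difference of −0.13 and an adjusted p of 0.288. For Dhx40, Hnrnpc and Rbm39 trained mice thus lay under naive mice in both genotypes, and their interactions were −0.13, −0.14 and −0.10, with adjusted p-values of 0.799, 0.725 and 0.792.

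**Figure D2:**
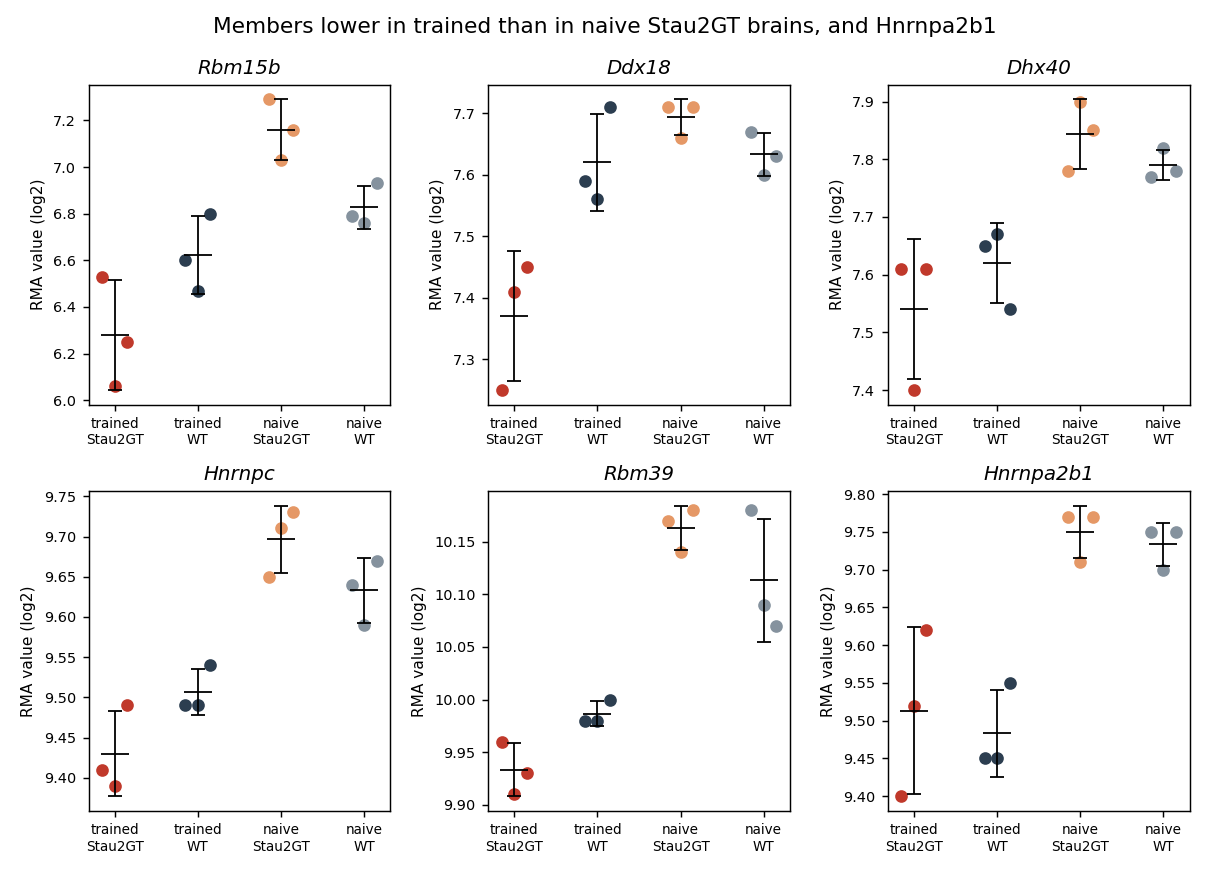
RMA values (log2) of the 5 members called lower in trained Stau2GT mice and of Hnrnpa2b1 in each mouse (points), with the mean and SD of each group of 3 (bars); value axes do not start at 0. Rbm15b spans 6.06 to 6.53 in trained Stau2GT brains and 7.03 to 7.29 in naive Stau2GT brains, while Hnrnpa2b1 is lower in trained mice of both genotypes.

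The 3 members with the smallest p in the higher direction did not pass. Ddx5 had 11.71, 11.92 and 11.91 in trained Stau2GT brains, against 11.54, 11.69 and 11.62 in naive Stau2GT brains, with a difference of 0.23 (adjusted p = 0.103). Dhx34, a helicase of nonsense-mediated decay, had 6.63, 6.58 and 6.37, against 6.35, 6.27 and 6.28, with a difference of 0.23 (adjusted p = 0.112). Ddx31, a nucleolar helicase, differed by 0.18 (adjusted p = 0.135). In all 3 the groups were apart. The single call among them came without trained Stau2GT replicate 3, when Dhx34 differed by 0.31 (adjusted p = 0.0391).

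Calls in Stau2GT mice rested on few arrays and on the scale. Leaving out trained Stau2GT replicate 2, or any of the 3 naive Stau2GT arrays, left Rbm15b as the only call, and leaving out trained WT replicate 1 left 3. Leaving out trained Stau2GT replicate 3 gave 11 lower members, 4 of the 5 among them. Centring each array on its median gave 13, the 5 included, and shifted calls over all clusters toward the lower side: 22.5% of calls were higher, against 51.2% on the deposited scale, and 5.90% of all clusters were called lower.

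In WT mice none of the 113 members passed in the comparison of trained with naive brains, where 1.40% of all clusters did. At an unadjusted p under 0.05 there were 14 members, or 12.4%, against 16.0% of all clusters, and the groups were apart for 31, or 27.4%, against 22.9%. Of the 31, 22 were lower and 9 higher in trained WT brains, against 3224 and 3191 of the 27966 clusters. Single-symbol clusters with groups apart there were 2009 lower and 1826 higher. Hnrnpa2b1, which binds transport signals in mRNAs, had 9.45, 9.45 and 9.55 in trained WT brains, against 9.75, 9.70 and 9.75 in naive WT brains. The difference was −0.25 (SE 0.07, adjusted p = 0.102), and it passed only with an intensity trend and robust moderation (adjusted p = 0.0464). In Stau2GT mice Hnrnpa2b1 had 9.40, 9.52 and 9.62 in trained brains, against 9.77, 9.71 and 9.77 in naive brains, a difference of −0.24 (adjusted p = 0.0626). Ddx50, a nucleolar paralogue of Ddx21, differed by −0.25 in WT mice (adjusted p = 0.153) and −0.30 in Stau2GT mice (adjusted p = 0.0516).

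Srsf10, which can repress splicing, had 7.06, 6.71 and 6.95 in trained WT brains, against 7.23, 7.29 and 7.28 in naive WT brains. The difference of −0.36 had an adjusted p of 0.172, and the Stau2GT difference was also −0.36 (adjusted p = 0.0913). On the higher side, Dhx37, a helicase of small ribosomal subunit assembly, had 6.76, 6.87 and 7.01 in trained WT brains, against 6.65, 6.45 and 6.60 in naive WT brains. Dhx37 differed by 0.31 (adjusted p = 0.106), the splicing regulator Rbm4b by 0.27 (adjusted p = 0.138) and Ddx24, a helicase of ribosome assembly, by 0.24 (adjusted p = 0.170). All 6 of these members had groups that did not overlap in WT mice, and none passed the test.

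The training comparisons of both genotypes share no mouse, and 10 members lay lower in all 3 trained mice than in all 3 naive mice of each genotype. Judged on the cluster used for each gene, they were Ddx50, Dhx40, Elavl4, Hnrnpa2b1, Hnrnpc, Hnrnpf, Hnrnph2, Rbm39, Srsf1 and Srsf10, which is 8.85% of members, against 5.07% of all clusters. Only Ddx31 and Dhx37 lay higher in both, or 1.77% of members, against 3.94% of all clusters. The 2 array sets divide both comparisons in the same way, and their part was not tested.

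By family, Hnrnp genes leaned to the lower side with training. In Stau2GT mice 15 of 18 had a difference below 0, with a median of −0.08, and in WT mice 15 of 18, with a median of −0.065. Of the 18, 1 was called lower in Stau2GT mice, or 5.56%, against 2.98% of all clusters, which is 1 gene and no result about the family, and none was called in WT mice, against 1.4% of all clusters. The medians over all 113 members were −0.05 in Stau2GT mice and −0.04 in WT mice, against 0.02 and 0.00 over all clusters tested. Under quantile normalization the Hnrnp medians were −0.03 in Stau2GT and −0.05 in WT mice, and under median centring −0.16 and −0.09. Leaving out single arrays moved the Hnrnp median in Stau2GT mice over −0.15 (without trained Stau2GT replicate 3) to −0.06, and in WT mice over −0.085 to −0.05. The all-member median in Stau2GT mice was −0.02 without trained Stau2GT replicate 2. The Srsf median in Stau2GT mice was −0.035 on the deposited scale, 0.01 after quantile normalization and 0.01 without trained Stau2GT replicate 2, so its sign depended on the scale and on 1 array. Rbm genes had medians of −0.065 in Stau2GT mice, with 18 of 28 below 0, and −0.08 in WT mice, with 20 of 28 below 0. The Rbm median in Stau2GT mice was −0.12 without trained Stau2GT replicate 3 or naive Stau2GT replicate 3 and −0.04 without trained Stau2GT replicate 2, and in WT mice it was −0.03 without naive WT replicate 3. Celf genes had medians of 0.03 in Stau2GT mice, which turned to −0.05 under median centring, and −0.05 in WT mice.

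**Figure D3:**
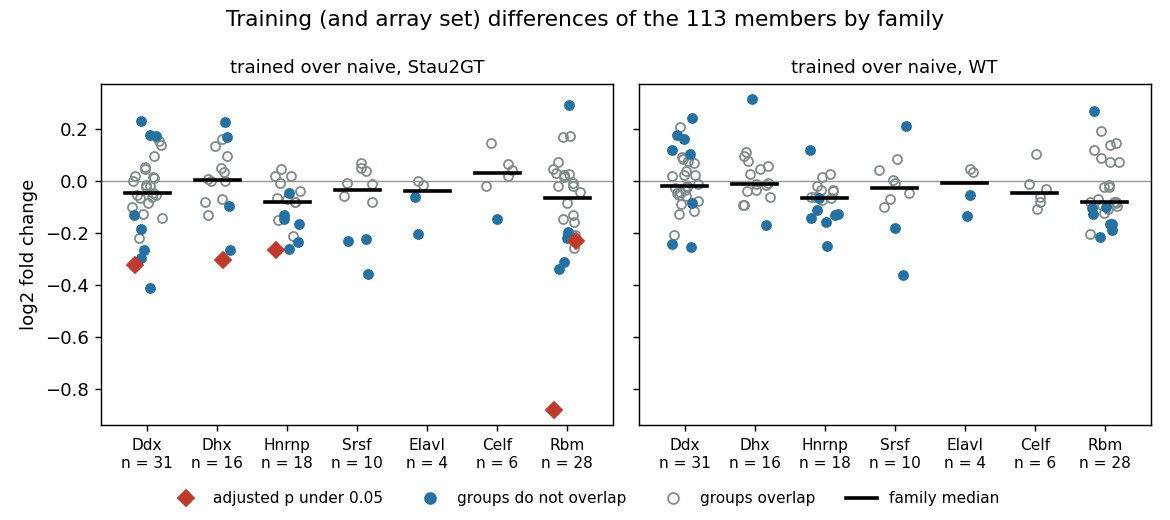
Log2 fold change of trained over naive mice for the 113 members by family, in Stau2GT mice (left) and WT mice (right); red diamonds passed at an adjusted p under 0.05, blue points had groups that did not overlap, and bars are family medians. The 5 diamonds are all in Stau2GT mice and below 0, and Hnrnp medians are −0.08 and −0.065.

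For 10 members more than 1 cluster passed the filter, and these clusters often gave unlike answers. In trained against naive Stau2GT brains, 6 of the 10 genes (Ddx21, Ddx39b, Hnrnpd, Hnrnpf, Rbm38 and Srsf1) had a cluster of opposite sign to the one used. In WT mice 7 of the 10 did (Celf5, Ddx21, Hnrnpd, Hnrnpf, Hnrnpk, Rbm38 and Srsf1). The Hnrnpf cluster used here differed by −0.17 in trained against naive Stau2GT brains (adjusted p = 0.165), while another 2 Hnrnpf clusters, of lower mean, differed by −0.37 and −0.43 with adjusted p-values of 0.0276 and 0.0215, and one of opposite sign by 0.25. The Ddx39b cluster used here differed by 0.14 in Stau2GT mice (adjusted p = 0.305) and 0.18 in WT mice, while a dimmer one differed by 0.55 (adjusted p = 0.0281) and 0.75 (adjusted p = 0.0157), and the dimmest by −0.12 and 0.15. For Srsf1 the cluster used differed by −0.23 in Stau2GT and −0.18 in WT mice, and the dimmer one by 0.13 and 0.40. For Hnrnpd the values were −0.21 and −0.16 for the cluster used, and 0.19 and 0.33 for the dimmer one. The training differences of these 4 genes are therefore uncertain, which takes in Hnrnpf and Srsf1 among the 10 members lower in both genotypes.

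Genotypes were compared to ask which members differ with reduced Stau2. In trained mice none of the 113 members passed, where 0.179% of all clusters did, and 7 had an unadjusted p under 0.05, or 6.19%, against 8.92% of all clusters. Groups were apart for 13 members, or 11.5%, against 11.2%. The median difference was 0.00 over the members, as over all clusters, and 111 of 113 members, or 98.2%, had a 95% interval within 0.5 of 0 on the log2 scale. So did 92.0% of the tested clusters with a single gene symbol and 77.7% of all clusters. With 3 mice against 3, an exact two-sided permutation test of a single gene cannot give a p under 0.1.

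The trained mice had the following leading values. Ddx18 had 7.25, 7.41 and 7.45 in trained Stau2GT brains, against 7.59, 7.56 and 7.71 in trained WT brains, which do not overlap, and a difference of −0.25 (SE 0.07, unadjusted p = 0.00431 and adjusted p = 0.336 in limma). Ddx47, a nucleolar helicase of rRNA processing, had 7.66, 7.83 and 7.71 in trained Stau2GT brains, against 8, 8.03 and 7.88 in trained WT brains. Its difference was −0.24 (adjusted p = 0.354). Rbm15b differed by −0.34 (adjusted p = 0.454), with overlapping groups. Among members with higher values in trained Stau2GT brains, Ddx19b, which releases mRNPs at the nuclear pore, differed by 0.19 and Rbm7, of the nuclear exosome targeting complex, by 0.18, both with groups apart. Ddx28, of mitochondrial ribosome assembly, differed by 0.25 with groups that overlapped. The adjusted p-values were 0.487 for Ddx19b, 0.555 for Rbm7 and 0.547 for Ddx28. The 5 cerebellar granule and Purkinje cell markers measured (of 6) were all above 0 in this comparison, with a median of 0.18 and no call. In naive mice 4 of these 5 were above 0, with a median of 0.07. In trained mice 4 of 5 oligodendrocyte markers were below 0, with a median of −0.10. Of the 4 choroid plexus markers 3 were above 0, with a median of 0.13. The part of these cells in the differences of the members was not tested.

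In naive mice none of the 113 members passed either, where 0.0858% of all clusters did, and 3 had an unadjusted p under 0.05, or 2.65%, against 5.00% of all clusters. Of the 3, 1 was Rbm46, which was a member only through Stau2GT arrays above 5, so its part in these counts was set by the filter. Groups were apart for 20 members, 16 higher and 4 lower in naive Stau2GT mice, which is 17.7%, against 12.0% of all clusters. The 16 include Rbm46. Of all 27966 clusters, 1788 were apart and higher and 1573 apart and lower. Of the 17331 single-symbol clusters, 1259 were apart and higher and 914 apart and lower. The median difference was 0.03 over the members and 0.00 over all clusters, with 78 members above 0 and 34 below. Hnrnp genes made up part of that lean: 17 of 18 were above 0, with a median of 0.07. Of the 18, 6 had groups apart, all higher in naive Stau2GT brains, against 1788 of all 27966 clusters in that direction. The 6 were Hnrnpa3, Hnrnpd, Hnrnpdl, Hnrnpf, Hnrnpk and Hnrnpul1, with differences of 0.04 to 0.12. None of the 18 had an unadjusted p under 0.05 in limma. The nearest values of both groups were 9.10 and 9.09 for Hnrnpa3, 10.04 and 10.03 for Hnrnpd and 9.29 and 9.26 for Hnrnpdl. Hnrnpa3 and Hnrnpd were thus apart by the smallest step of the deposited values. Hnrnpk, which binds C-rich RNA, had 10.65, 10.62 and 10.72 in naive Stau2GT brains, against 10.47, 10.55 and 10.60 in naive WT brains. Hnrnpf, a binder of G-rich RNA, had 7.68 in all 3 naive Stau2GT brains, against 7.59, 7.51 and 7.66 in naive WT brains. Srsf genes were above 0 in 9 of 10 cases, with a median of 0.06. Core spliceosome genes and other splicing regulators outside these families, counted further below, leaned the same way. The Hnrnp median was 0.05 after quantile normalization and 0.08 after median centring, and the Srsf median 0.04 and 0.07. The 3 naive Stau2GT arrays also entered the training comparison of Stau2GT mice. The leans of Hnrnp and Srsf genes and their lower medians there are thus not independent. In trained mice the Hnrnp median was 0.03, with no gene of 18 apart, and it turned to −0.01 under median centring and without trained Stau2GT replicate 3. Of the 10 genes with more than 1 cluster, 6 had one of opposite sign to the cluster used in the trained genotype comparison. They were Celf5, Hnrnpd, Hnrnpf, Hnrnph2, Hnrnpk and Rbm38. In the naive genotype comparison 1 of the 10 did, Hnrnph2. All 5 oligodendrocyte markers measured were also above 0 in naive Stau2GT mice, with a median of 0.11, and all 4 choroid plexus markers, with a median of 0.28. The oligodendrocyte mean was 9.16 to 9.24 on naive Stau2GT arrays, against 9.04 to 9.13 on naive WT arrays, and the choroid plexus mean 8.31 to 8.49, against 7.97 to 8.35. None of these markers passed, and their part in the lean of the Hnrnp and Srsf genes was not tested.

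Srsf3, a splicing and export factor, had 7.68, 7.72 and 7.58 in naive Stau2GT brains, against 7.46, 7.42 and 7.47 in naive WT brains. Its groups were apart and the difference was 0.21 (SE 0.07, unadjusted p = 0.0131, adjusted p = 0.954, limma). Rbm15b was higher in all 3 naive Stau2GT mice, by 0.33 (adjusted p = 0.954), the direction opposite to that of its difference in trained mice. Ddx11, a DNA helicase of chromatid cohesion, had 5.49, 5.35 and 5.35 in naive Stau2GT brains, against 5.63, 5.61 and 5.61 in naive WT brains, a difference of −0.22 with an adjusted p of 0.998. Dhx34 differed by −0.14 with groups apart, and Ddx5 by −0.15 with overlapping groups, both with an adjusted p of 0.998.

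**Figure D4:**
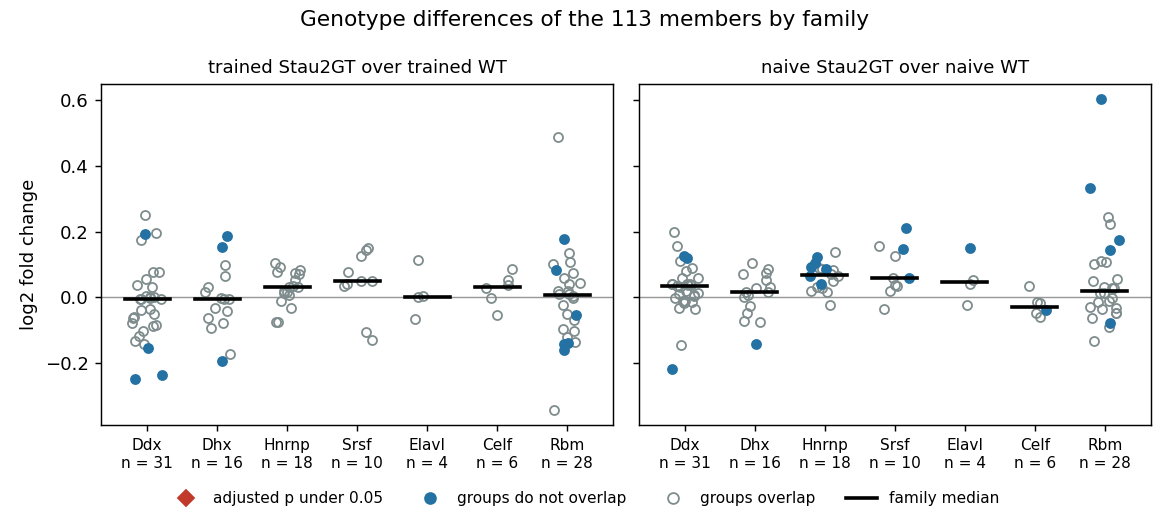
Log2 fold change of Stau2GT over WT for the 113 members by family, in trained mice (left) and naive mice (right); blue points had groups that did not overlap, bars are family medians, and no member passed at an adjusted p under 0.05. In naive mice 17 of 18 Hnrnp genes and 9 of 10 Srsf genes lie above 0.

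Averaged over both training states, no member passed, where 0.118% of all clusters did, and 6 had an unadjusted p under 0.05, or 5.31%, against 6.23% of all clusters. Rbm46, a germ cell RNA-binding protein close to the filter on low values here, had 5.27, 5.02 and 4.59 in trained Stau2GT brains, against 4.41, 4.73 and 4.28 in trained WT brains. It had 5.35, 4.81 and 4.50 in naive Stau2GT brains, against 4.35, 4.03 and 4.47 in naive WT brains. Naive groups did not overlap, with 4.50 and 4.47 as their nearest values, and trained groups overlapped. The mean difference was 0.55 and is given as a description, with no test: all 3 arrays above 5, which made Rbm46 a member, were Stau2GT arrays, so it was counted only through the genotype in which it was high. Rbm46 is nonetheless 1 of the 6 members counted above at an unadjusted p under 0.05.

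Dhx38, the helicase of the second catalytic step of splicing, had 6.71, 6.51 and 6.75 in trained Stau2GT brains, against 6.83, 6.78 and 6.94 in trained WT brains. Naive Stau2GT brains had 6.74, 6.69 and 6.75, against 6.75, 6.88 and 6.78 in naive WT brains. Dhx38 was thus at or below the lowest WT value of its state in every Stau2GT mouse, and its mean difference was −0.135 (SE 0.05, adjusted p = 0.748, limma). The exact permutation p within states was 0.01 for Dhx38, 0.035 for Ddx28 (mean difference 0.20), 0.035 for Srsf3 (0.13), 0.065 for Ddx47 (−0.12) and 0.185 for Ddx18 (−0.095), none adjusted over genes. Of the 18 Hnrnp genes 16 had a mean difference above 0, with a median of 0.06, and of the 10 Srsf genes 9, with a median of 0.07. The Elavl genes had mean differences of −0.01 to 0.08 and the Celf genes of −0.03 to 0.06. Of the 113 members, 112, or 99.1%, had a 95% interval of the mean difference within 0.5 of 0, against 98.8% of single-symbol clusters and 90.5% of all clusters.

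**Figure D5:**
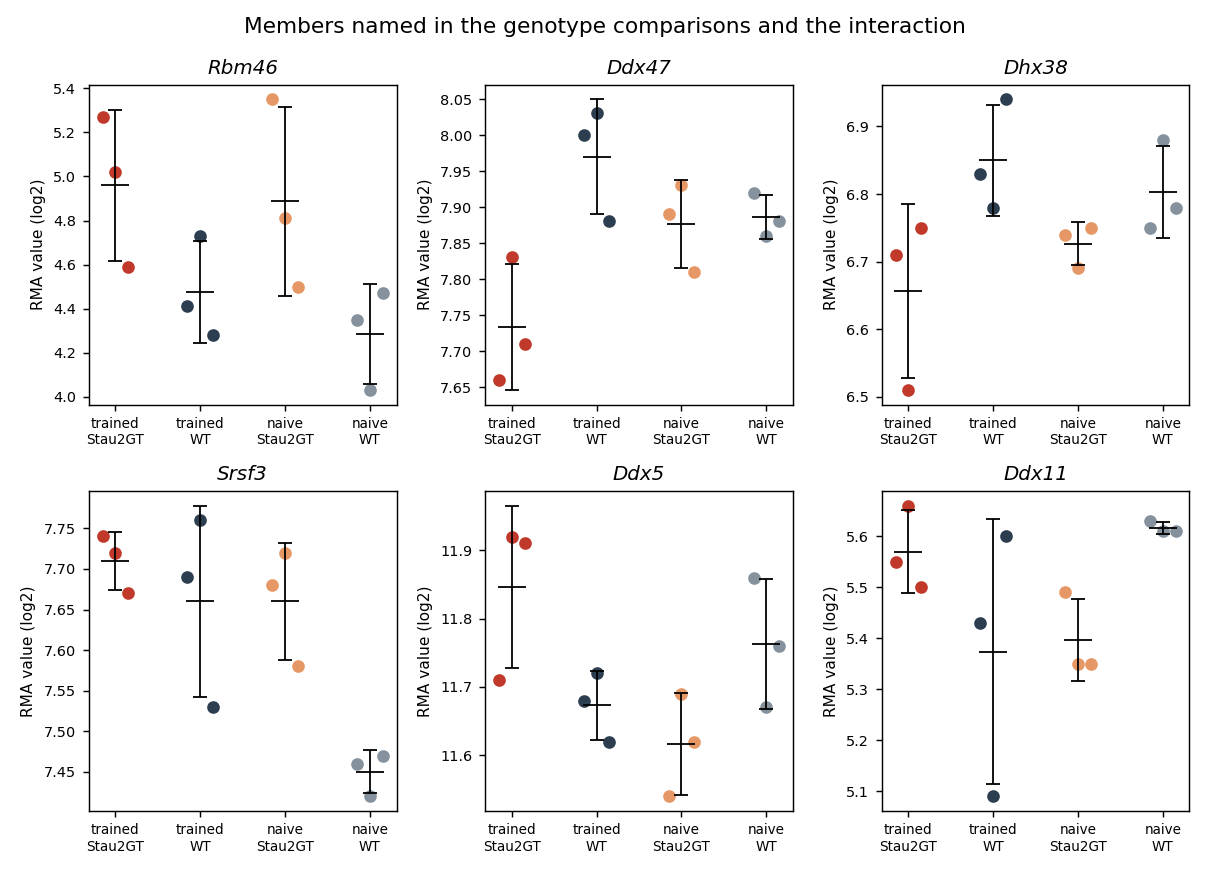
RMA values (log2) of 6 members in each mouse (points), with the mean and SD of each group of 3 (bars); value axes do not start at 0. Rbm46 is higher in most Stau2GT mice, Ddx47 is low in trained Stau2GT mice (7.66 to 7.83), and Ddx11 is lower in naive Stau2GT than in naive WT mice but not in trained mice.

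The interaction asked whether the effect of training differed between genotypes. No member passed, where 0.0215% of all clusters did, and 7 had an unadjusted p under 0.05, or 6.19%, against 7.70% of all clusters. After Rbm15b and Ddx18, the splicing factor Srsf6 differed by −0.26 (adjusted p = 0.626), with 8.22, 8.20 and 8.28 in trained Stau2GT brains, against 8.57, 8.32 and 8.48 in naive Stau2GT brains. Ddx5 differed by 0.32 (SE 0.11, adjusted p = 0.573), Ddx11 by 0.42 (SE 0.16, adjusted p = 0.614) and Dhx34 by 0.24 (adjusted p = 0.665). Ddx5 had 11.68, 11.72 and 11.62 in trained WT brains, against 11.86, 11.67 and 11.76 in naive WT brains, a difference of −0.09, beside 0.23 in Stau2GT mice.

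Genes outside these families that work on the same substrates were counted for comparison. The lists held 35 measured splicing regulators of other names, 47 core spliceosome genes, 8 splicing kinases, 11 exon junction and decay genes and 3 eIF4A helicases. In the genotype comparisons, the interaction and the WT training comparison none of them passed. In naive mice 35 of the 47 core spliceosome genes were higher in Stau2GT than in WT brains, and 11 were lower (median 0.04). Other splicing regulators split 22 to 13 in that direction (median 0.04), exon junction and decay genes 7 to 4 and splicing kinases 4 to 4. The lean of Hnrnp and Srsf genes in naive mice was thus not particular to those families. In trained against naive Stau2GT brains, 2 of 47 core spliceosome genes and 1 of 11 exon junction and decay genes were lower and none was higher. That is 3 of the 104 listed genes, or 2.88%, against 2.98% of all clusters called lower, so the share was that of the background. Snrpd1, a subunit of the Sm ring, had 7.14, 6.56 and 7.27 in trained Stau2GT brains, against 7.65, 7.70 and 7.81 in naive Stau2GT brains, and fell by 0.73 (adjusted p = 0.0288, limma). Usp39, of the tri-snRNP, fell by 0.29 (adjusted p = 0.0326), and Pnn, of the exon junction complex periphery, fell by 0.28 (adjusted p = 0.0275). The core spliceosome genes had a median difference of −0.07 there, with 34 of 47 below 0, against 0.02 over all clusters.

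Some lists of cell markers leaned to 1 side in the same contrast. In trained against naive Stau2GT brains all 5 oligodendrocyte markers measured were below 0, with a median of −0.12, all 6 markers of endothelium and pericytes, with a median of −0.10, and all 4 choroid plexus markers, with a median of −0.15. Neuron markers were 3 above and 3 below 0 in Stau2GT mice, and astrocyte and microglia markers each 2 above and 4 below. In WT mice the medians were 0.18 for oligodendrocytes, 0.01 for endothelium and pericytes and −0.08 for choroid plexus. None of these markers passed. The mean over the oligodendrocyte markers (5 of 6 listed) was 9.01 to 9.24 on trained Stau2GT arrays, against 9.16 to 9.24 on naive Stau2GT arrays. For endothelium and pericytes (6 of 6) it was 7.83 to 7.91, against 7.96 to 8.01, so the groups were apart, and for choroid plexus (4 of 5) it was 8.05 to 8.34, against 8.31 to 8.49. The only marker called was the cerebellar gene Neurod1, which rose by 0.73 in trained against naive Stau2GT brains (adjusted p = 0.0195) and differed by 0.62 in WT mice (adjusted p = 0.0590). Of the 5 cerebellar markers measured 3 were above 0 and 2 below in Stau2GT mice, with a median of 0.05 and Gabra6 at −0.32. The part of these cells in the 5 lower members was not tested.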

How the data were processed

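Total RNA of brain lysates from 12 mice was measured on Affymetrix Mouse Gene 2.0 ST arrays, 3 mice in each of 4 groups. The authors extracted intensities and normalized them by RMA in oligo, and deposited 1 log2 value per cluster and array, to 2 decimals. For the oligo version, the annotation build and joint or separate normalization of both array sets, nothing is stated in the labels or the study's methods. Of 41345 clusters, 23521 had 1 gene symbol in the platform annotation, 1820 had several and 16004 are unnamed here.

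The 27966 clusters that exceeded 5 on 3 or more arrays were tested with limma 3.58.1 in R 4.3.3 on all 4 groups, with Benjamini-Hochberg adjustment over all of them and a threshold of 0.05. The fit had 8 residual and 2.78 prior degrees of freedom; it was tested on simulated data. Single genes were also tested by exact permutation, within states for the average. As nothing ties the 3 mice of a group to separate litters, p-values measure the spread between these samples, and the number of arrays limits precision. Named members were those called, at most 8 in each direction, filled to 3 by unadjusted p, plus the brightest and dimmest cluster of each family and the 3 most variable members. The members, gene lists and this rule were chosen with earlier results of these data known. Alternatives were no filter, a filter at 6, quantile normalization, median centring, robust moderation with an intensity trend, array weights, a replicate block, only the groups compared, the methods' t-test, the mean over clusters and leaving out each array. Promoter windows and gene order are from RefSeq GRCm38.p6. Lists of astrocyte, microglia and liver markers held no call, and no red cell marker was measured.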

Additional observations from a re-analysis of the deposited data

Results flagged for a closer look

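Ddx11 lay on opposite sides of the training comparison in the 2 genotypes: it was higher in all 3 trained Stau2GT brains (5.55, 5.66 and 5.50) than in all 3 naive Stau2GT brains (5.49, 5.35 and 5.35), and lower in all 3 trained WT brains (5.43, 5.09 and 5.60) than in all 3 naive WT brains (5.63, 5.61 and 5.61). The difference of both differences was 0.4167, with an unadjusted p of 0.0231 and an adjusted p of 0.614 in limma, so it did not pass. The nearest values were 0.01 apart in both genotypes, which is the step of the deposited values.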

How the results depend on the processing

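No member was called in the genotype comparisons or the interaction under any alternative, and no named difference changed its sign. The count of 5 members lower in trained than in naive Stau2GT brains was 3 with no filter, 8 with the filter at 6, 2 after quantile normalization, 13 after median centring, 3 with array weights, 1 with only the groups compared and 0 with the methods' t-test. It ranged from 1 to 11 when single arrays were left out, and the count of higher members from 0 to 1. At an unadjusted p under 0.05 the methods' t-test held 9 members in trained and 14 in naive mice by genotype, and 21 in Stau2GT and 19 in WT mice by training; after Benjamini-Hochberg it held 0 in each. In WT mice 1 member was lower with an intensity trend and robust moderation, against 0 otherwise. Of 22 alternatives Rbm15b stayed called in 21 (adjusted p 0.00424 to 0.149), Hnrnpc in 16 (0.00917 to 0.128), Ddx18 in 14 (0.0123 to 0.163), Dhx40 in 8 (0.0233 to 0.203) and Rbm39 in 8 (0.0111 to 0.134). The causes were not tested. Over 18 pairs of same-numbered arrays, the deviations from group means correlated at −0.101 to 0.0686, so no large deviation shared by replicate number was seen. That cannot show whether the numbers pair mice, and the sample titles only number the replicates. With the replicate number as a block, 5 members were called, 3 of them shared with the fit without it, and Ddx50 and Ddx52 took the place of Dhx40 and Rbm39. Differences under about 0.2 on the log2 scale could not be told from the spread for most members, whose median 95% interval was 0.172 to either side of the genotype difference within a state.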
